A study of Mus musculus with 6 samples.

Results

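The genes described here encode the pore-forming alpha1 subunits of the voltage-gated calcium channels. The 10 members, Cacna1a, Cacna1b, Cacna1c, Cacna1d, Cacna1e, Cacna1f, Cacna1g, Cacna1h, Cacna1i and Cacna1s, were taken by symbol from a table of 54281 genes, and all 10 were found by their Ensembl identifier. Their transcripts were measured in 6 libraries of GLUTag cells, a murine enteroendocrine cell line that secretes the incretin hormone GLP-1. All wells were untreated. They held DMEM with 1 g/L glucose and 10% heat-inactivated FBS, on plastic coated with Matrigel, and the cells were harvested after 48 h. Plate 1 gave 3 libraries of cells at passage 23, and plate 2 gave 3 libraries of cells at passage 27. Plate and passage therefore cannot be told apart, and nothing in the labels says that the wells of a plate came from separate cultures, so that all p-values measure only the spread between these libraries. The libraries describe a single cell line.

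The library kit reads the 3′ end of each polyadenylated transcript. Counts of this kind are not proportional to transcript length, and levels are set side by side between genes without dividing by it. They are reads, PCR copies included, and depend on the annotated 3′ ends, of which the 10 genes have 2 (Cacna1a) to 9 (Cacna1c) for coding transcripts, and how far this bears on the order of the genes was not tested. Levels are given as CPM, the count divided by the total count of the library and scaled to a total of 1 M. Library totals lay between 21399987 and 36488198 counts, with a mean of 27.3 ± 5.76 M (SD, n = 6), and all 3 totals of plate 2 were above those of plate 1. The columns of plate 2 could not be matched to single wells, and they are called here the libraries with the lowest, middle and highest total. A count of 0 allows up to 3 counts, which is 0.0822 to 0.14 CPM depending on the library and covers counting error only. A gene was called detected where it had more than 3 counts in every library. By that rule all 7 enteroendocrine markers examined were detected, with Gcg, the gene of the GLP-1 precursor, at 3416 ± 771 CPM (SD, n = 6).

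Voltage-gated calcium channels open when the membrane depolarises and let calcium into the cell, which in neurons and endocrine cells triggers the fusion of vesicles and granules. The alpha1 subunit forms the pore from 4 homologous repeats and carries the voltage sensors, whereas the beta, alpha2delta and gamma subunits that join it govern its trafficking and gating. L-type channels (Cacna1c, Cacna1d, Cacna1f and Cacna1s) are the targets of dihydropyridines. P/Q-, N- and R-type channels (Cacna1a, Cacna1b and Cacna1e) are best known from presynaptic terminals. T-type channels (Cacna1g, Cacna1h and Cacna1i) open at more negative voltages than the others and inactivate quickly.

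Calcium is selected by a ring of acidic residues, with a single residue from each of the 4 repeats. The coding sequence around this residue is shown because the residue sets the T-type genes apart from the other classes compared below. It was found in the longest complete coding transcript of each gene in GENCODE release M21 on GRCm38, as a glutamate or aspartate codon at the same aligned position in all 10 predicted proteins. In the 7 L-, P/Q-, N- and R-type genes all 4 repeats had a glutamate codon. In the 3 T-type genes repeats I and II had a glutamate codon and repeats III and IV an aspartate codon. The repeat IV stretches, each within a single coding exon, read as follows 5′ to 3′ on the coding strand, with the filter codon in capitals.
Cacna1a: agcgccacaggaGAAgcgtggcacaacatc
Cacna1b: agtgccactgggGAGgcctggcatgagatc
Cacna1e: agtgccacggggGAGgcttggcaggagatt
Cacna1c: tgtgccaccggaGAGgcctggcaggacatc
Cacna1d: tgtgcaacagggGAAgcctggcaggagatc
Cacna1f: tgtgccactggtGAGgcctggcaagagata
Cacna1s: tgtgccacagggGAAgcctggcaagagatc
Cacna1g: gtctccactggtGACaactggaatggtatt
Cacna1h: gtgtccactgggGACaactggaatgggatc
Cacna1i: gtctccacaggcGATaactggaatgggatt

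For the 3 genes with the highest level in their class, these stretches lie at chr8:84611599-84611628 (plus strand, Cacna1a), chr14:30075941-30075970 (minus strand, Cacna1d) and chr11:94416412-94416441 (minus strand, Cacna1g). For repeat III, the same window has the filter codon of Cacna1d in gtctcaacttttGAGggctggcccgcgttg and that of Cacna1g in ctggcctccaagGATggctgggttgacatc. The window of Cacna1d is joined from a pair of exons, whereas that of Cacna1g lies in a single exon at chr11:94426456-94426485. Over the whole predicted proteins, which had 1852 to 2381 residues, identity over aligned residues was 62.6 to 69.1% among the L-type members, 61.4 to 66.1% among the P/Q-, N- and R-type members and 59.4 to 62.2% among the T-type members. Identity between the L-type and the P/Q-, N- and R-type members was 41.0 to 44.0%. T-type members shared only 25.2 to 30.0% with any member of the other classes.

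In GLUTag cells 7 of the 10 genes were detected, with at least 1 member of each class. Cacna1a was highest in all 6 libraries and Cacna1d second in all 6. Cacna1c, Cacna1b, Cacna1e and Cacna1g followed, and Cacna1h was lower than these in every library. Cacna1f, Cacna1i and Cacna1s were not detected. Summed over the 10 genes, the level was 116.6 ± 26.3 CPM (SD, n = 6). In such libraries of whole wells, fewer expressing cells and less RNA per cell cannot be told apart.

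**Figure D1:**
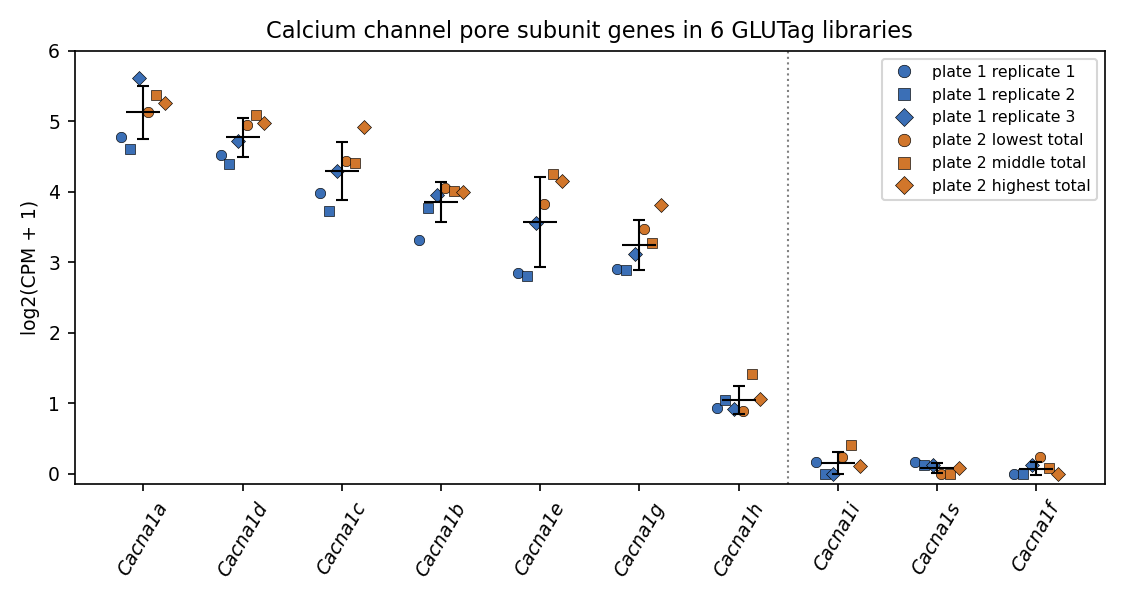
Level of each pore subunit gene as log2(CPM + 1), with 1 point per library, blue for plate 1 and orange for plate 2, and the mean and SD over the 6 libraries in black. Cacna1a and Cacna1d lie highest, Cacna1h lies well below the next gene above it, and the 3 genes right of the dotted line were not detected.

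Among the P/Q-, N- and R-type genes, Cacna1a encodes the P/Q-type pore that drives transmitter release at most central synapses. It is ENSMUSG00000034656, at chr8:84388440-84640246 on the plus strand. Its level was 26.4, 23.4 and 47.9 CPM in replicates 1, 2 and 3 of plate 1 and 34.1, 40.5 and 37.3 CPM in the libraries of plate 2 with the lowest, middle and highest total. Replicate 3 of plate 1 was the highest library and replicate 2 of the same plate the lowest, so that plate 1 spanned all of plate 2. The mean was 34.9 ± 9.05 CPM (SD, n = 6), from 530 to 1362 counts per library, and was above that of 83.3% of the genes with any count.

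Cacna1b, the N-type pore and the target of omega-conotoxin GVIA, is ENSMUSG00000004113 at chr2:24603887-24763152 on the minus strand. Its level was 8.96, 12.6 and 14.6 CPM on plate 1 and 15.7, 15.2 and 14.9 CPM on plate 2, a mean of 13.6 ± 2.53 CPM (SD, n = 6). Replicate 1 of plate 1 lay below the other libraries, and the 3 libraries of plate 2 lay close together. Cacna1e, the R-type pore, is ENSMUSG00000004110 at chr1:154390731-154884501 on the minus strand. It had 6.17, 5.96 and 10.7 CPM on plate 1 and 13.2, 18.1 and 16.7 CPM on plate 2, with a mean of 11.8 ± 5.16 CPM (SD, n = 6). Every library of plate 2 was above every library of plate 1 by CPM, as for 35.2% of all genes tested between the plates. With a coefficient of variation of 43.7% Cacna1e varied more between libraries than any other detected member (18.5 to 30.6%).

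Among the L-type genes, Cacna1d encodes a pore that opens at less depolarised voltages than that of Cacna1c and is common in neuroendocrine cells. It is ENSMUSG00000015968, at chr14:30039939-30491455 on the minus strand. Its level was 21.9, 20.1 and 25.3 CPM on plate 1 and 30.0, 33.1 and 30.6 CPM on plate 2, a mean of 26.8 ± 5.18 CPM (SD, n = 6) from 455 to 1115 counts. By CPM the plates did not overlap, with plate 2 the higher, as for 35.2% of all genes tested between the plates. With the TMM scaling used below they overlapped.

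Cacna1c, the L-type pore of heart and smooth muscle that is also widespread in neurons and endocrine cells, is ENSMUSG00000051331 at chr6:118587240-119196418 on the minus strand. It spans 609.2 kb, the longest of the 10 genes, against 28.1 kb for Cacna1f, the shortest. It had 14.8, 12.2 and 18.7 CPM on plate 1 and 20.6, 20.2 and 29.4 CPM on plate 2, with a mean of 19.3 ± 5.91 CPM (SD, n = 6). The library of plate 2 with the highest total was well above the other 5. By CPM the plates did not overlap, but with TMM scaling they did. Cacna1c and Cacna1d together made up nearly all L-type counts, since the other L-type genes were not detected. None of 4 cardiac muscle markers was detected.

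Cacna1f, the L-type pore of photoreceptor terminals (ENSMUSG00000031142, chrX:7607083-7635196, plus strand), had 0, 0 and 2 counts on plate 1 and 5, 2 and 0 counts on plate 2. Cacna1s, the pore and voltage sensor of skeletal muscle (ENSMUSG00000026407, chr1:136052750-136119822, plus strand), had 3, 2 and 2 counts on plate 1 and 0, 0 and 2 on plate 2. For both genes the counts were at or near the limit of detection in every library. Markers of the cells in which these genes are best known were likewise mostly at or near 0, with 1 of 5 skeletal muscle markers detected. Of 4 photoreceptor markers only Sag, which encodes S-arrestin, was detected, and this marker set summed to 155.6 to 177.3 CPM on plate 1 and 61.7 to 123.5 CPM on plate 2. The log2 fold change of Sag was -1.12 in edgeR (adjusted p = 0.0949), and it passed with DESeq2 (-1.15, adjusted p = 0.000182) and without a filter on low counts (-1.10, edgeR adjusted p = 0.00445). In the settings in which it passed, 3.7% and 2.02% of all genes tested did so.

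Among the T-type genes, Cacna1g (ENSMUSG00000020866, chr11:94408391-94474198, minus strand), known from the burst firing of thalamic neurons, was highest. Its level was 6.46, 6.45 and 7.71 CPM on plate 1 and 10.1, 8.64 and 13.1 CPM on plate 2, a mean of 8.75 ± 2.55 CPM (SD, n = 6). Plate 2 lay above plate 1 without overlap by CPM, but the plates overlapped with TMM scaling. Cacna1h, the T-type pore that nickel blocks at low concentrations, is ENSMUSG00000024112 at chr17:25374285-25433783 on the minus strand. It had 0.917, 1.06 and 0.888 CPM on plate 1 and 0.855, 1.68 and 1.096 CPM on plate 2, with a mean of 1.08 ± 0.309 CPM (SD, n = 6) from only 19 to 52 counts. The plate 2 library with the middle total was apart from the other 5, without which the mean was 0.963 CPM.

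Cacna1i, a T-type pore found mainly in the brain (ENSMUSG00000022416, chr15:80287238-80398279, plus strand), had 3, 0 and 0 counts on plate 1 and 5, 10 and 3 counts on plate 2. With 2 libraries at 0, it was not detected by the rule used here, although the plate 2 library with the middle total had 0.323 CPM. That library was also the highest for Cacna1h.

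Whether strand was used in counting is not given in the sources used here. In the annotation the exons of 4 members overlap those of a gene on the opposite strand, namely Chdh for Cacna1d, Gm37759 for Cacna1s, Gm16183 for Cacna1a and Tpsg1 for Cacna1h. Chdh had 0 to 4 counts per library and the other 3 had 0 counts in every library. The counts of all 10 members were whole within 0.01 in every library, as counts are where no read is divided between genes.

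Neighbours in the order of levels were compared within libraries. The difference in log2(CPM + 1) was taken between each member and the next and put to a two-sided exact permutation test that flips the sign of each of the 6 differences. The p-values of the 7 pairs were adjusted together by the Benjamini-Hochberg method. The order itself came from the same values. With 6 libraries the smallest p is 0.03125, which after this adjustment was 0.0547, so that a pair could pass a threshold of 0.05 only if at least 5 of the 7 reached that p. This was so for 4 pairs, and none passed.

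Cacna1a was above Cacna1d by 0.35 ± 0.27 on the log2 scale (SD, n = 6), in 6 of 6 libraries (exact p = 0.03125, adjusted p = 0.0547). The difference was 0.89 in replicate 3 of plate 1 and between 0.18 and 0.29 in the other 5 libraries, and its mean without that replicate was 0.24. Cacna1d was above Cacna1c by 0.48 ± 0.23 in 6 of 6 libraries, with the same p-values in the exact test. In the plate 2 library with the highest total this gap was only 0.06.

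The middle of the order was less separated. Cacna1c was above Cacna1b by 0.44 ± 0.33 on the log2 scale in 5 of 6 libraries, with replicate 2 of plate 1 the exception (exact p = 0.062, adjusted p = 0.0875). Cacna1b was above Cacna1e by 0.28 ± 0.44 in 4 of 6 libraries (exact p = 0.1875, adjusted p = 0.1875), and by 0.14 without replicate 2 of plate 1. Its mean lead over Cacna1e was 0.62 on plate 1 and -0.06 on plate 2, where the libraries with the middle and highest total had more Cacna1e than Cacna1b. Cacna1e was above Cacna1g by 0.32 ± 0.39 in 4 of 6 libraries (exact p = 0.125, adjusted p = 0.146), and replicates 1 and 2 of plate 1 had slightly more Cacna1g. Without the middle library of plate 2 by total this lead was 0.19. In each of these 3 pairs the order of the genes turned in at least 1 library.

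Cacna1g and Cacna1h lay further apart than the pairs above them in the order. The difference was 2.20 ± 0.39 on the log2 scale, in 6 of 6 libraries (exact p = 0.03125, adjusted p = 0.0547), and the ratio of their CPM lay between 5.13 and 11.95. Cacna1h was in turn above Cacna1i by 0.89 ± 0.15 in 6 of 6 libraries, with the same p-values in the exact test. On this scale, with 1 CPM added, the last difference understates the ratio of such low genes, and it was 2.60 with 0.1 CPM and 0.25 with 5 CPM added. That of Cacna1g and Cacna1h was 2.89 and 1.16.

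The question of which channel class supplies most pore transcripts was put to the class sums. P/Q-, N- and R-type genes summed to 60.4 ± 15.0 CPM, L-type genes to 46.3 ± 10.4 CPM and T-type genes to 9.95 ± 2.63 CPM (SD, n = 6 each). As shares of the counts of all 10 genes these were 51.6 ± 3.74%, 39.8 ± 2.76% and 8.56 ± 1.12%. The order of the classes was the same in all 6 libraries. The share of the P/Q-, N- and R-type genes was 48.4, 51.3 and 58.1% on plate 1 and 50.4, 53.6 and 48.2% on plate 2, highest in the replicate with most Cacna1a.

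P/Q-, N- and R-type genes were above L-type genes by 0.37 ± 0.20 on the log2 scale, in 6 of 6 libraries, a ratio of 1.13 to 1.66. To the P/Q-, N- and R-type sum Cacna1a gave 34.9 CPM on average, Cacna1b 13.6 CPM and Cacna1e 11.8 CPM. The lead over the L-type genes thus depended on Cacna1a. L-type genes were above T-type genes by 2.11 ± 0.11, a ratio of 4.20 to 5.14. P/Q-, N- and R-type genes were above T-type genes by 2.48 ± 0.28, a ratio of 4.83 to 8.51. Each of the 3 differences had an exact p of 0.03125 in the sign-flip permutation test, the smallest that 6 libraries can give, and 0.03125 after adjustment over the 3 pairs. This adjusted p holds because all 3 pairs reached the smallest p, and a pair that reached it alone would not have passed. The mean differences on the 2 plates were 0.42 and 0.32, 2.12 and 2.10, and 2.54 and 2.42 in the order given above. With 3 libraries a plate, neither plate alone could pass such a test.

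**Figure D2:**
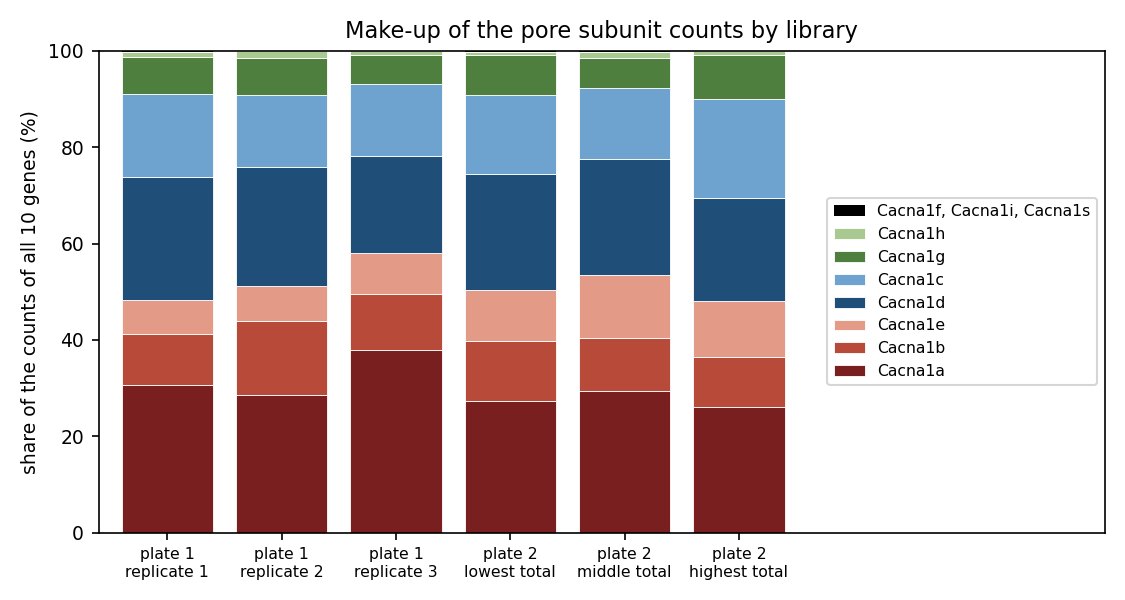
Share of each pore subunit gene in the counts of all 10 genes (%), stacked for each of the 6 libraries, with P/Q-, N- and R-type genes in red, L-type genes in blue and T-type genes in green. Cacna1a takes 26.1 to 38.0% and Cacna1d 20.1 to 25.5% of the counts, and the share of Cacna1f, Cacna1i and Cacna1s is too small to see.

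The share of Cacna1e in the pore subunit counts was 7.18, 7.29 and 8.53% on plate 1 and 10.6, 13.2 and 11.7% on plate 2, without overlap. The share of Cacna1d was 23.4% on average on plate 1 and 23.1% on plate 2. Plate means of the Cacna1a share were 32.4 and 27.6%, a wider gap in percentage points than that of Cacna1e, but the plates overlapped, with 28.6% in replicate 2 of plate 1 and 29.4% in the middle library of plate 2 by total.

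Whether the genes differed between the plates was tested with edgeR on all genes with enough counts, 15669 in total, with TMM scaling. Of the 10 members 7 were tested, since Cacna1f, Cacna1i and Cacna1s had too few counts. None of the 7 passed an adjusted p of 0.05, and 1, Cacna1e, had an unadjusted p under 0.05. Of all genes tested 29 were called, which is 0.185%, with 2 higher and 27 lower on plate 2, and 2520 had an unadjusted p under 0.05. The count over all genes moved with the method, as DESeq2 called 579 genes (3.7%), 154 higher and 425 lower, and 0 of the 7 members. With the column total alone edgeR called 1461 (9.32%), 1390 higher and 71 lower, and with each library omitted in turn between 0 and 1911.

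Cacna1e had the largest log2 fold change of the 7, 0.81 ± 0.24 (SE) on plate 2 against plate 1 (edgeR unadjusted p = 0.00832, adjusted p = 0.166). With CPM scaled by the column total alone the same fit gave 1.07 with an adjusted p of 0.0387, and without a filter on low counts, where 2.02% of all genes were called, 0.83 with an adjusted p of 0.0143, so that the call depended on both choices. Over all alternatives its adjusted p lay between 0.0143 and 0.486, the highest without replicate 1 of plate 1. Cacna1g and Cacna1c had 0.36 ± 0.20 each, with adjusted p = 0.405 and 0.430 in edgeR. Cacna1d had 0.21 ± 0.13 (adjusted p = 0.493). Without the plate 2 library of highest total the estimates of Cacna1g and Cacna1c were 0.18 and 0.16, and without the middle one that of Cacna1d was 0.13. Cacna1h, with 0.08 ± 0.39, Cacna1b, with 0.07 ± 0.19, and Cacna1a, with -0.06 ± 0.25, had estimates smaller than their standard errors. For Cacna1a the sign turned with the column total alone, to 0.20.

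The median log2 fold change of the 7 members was 0.21, with 6 of 7 above 0, beside 0.03 over all genes tested, of which 8481 were above 0. This level moved with the scaling. With the column total alone, the median of all genes tested rose to 0.30, so that a change by CPM is to be read against that shift. By CPM, 5 of the 7 detected members (Cacna1b, Cacna1c, Cacna1d, Cacna1e and Cacna1g) had every plate 2 library above every plate 1 library, beside 35.2% of all genes tested. With totals scaled by TMM, a count made after the data were seen, only Cacna1e remained apart, at 6.73, 6.73 and 11.5 CPM on plate 1 and 11.8, 16.8 and 15.2 CPM on plate 2, beside 12.8% of all genes tested. Its highest library of plate 1 and lowest library of plate 2 then nearly touched.

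**Figure D3:**
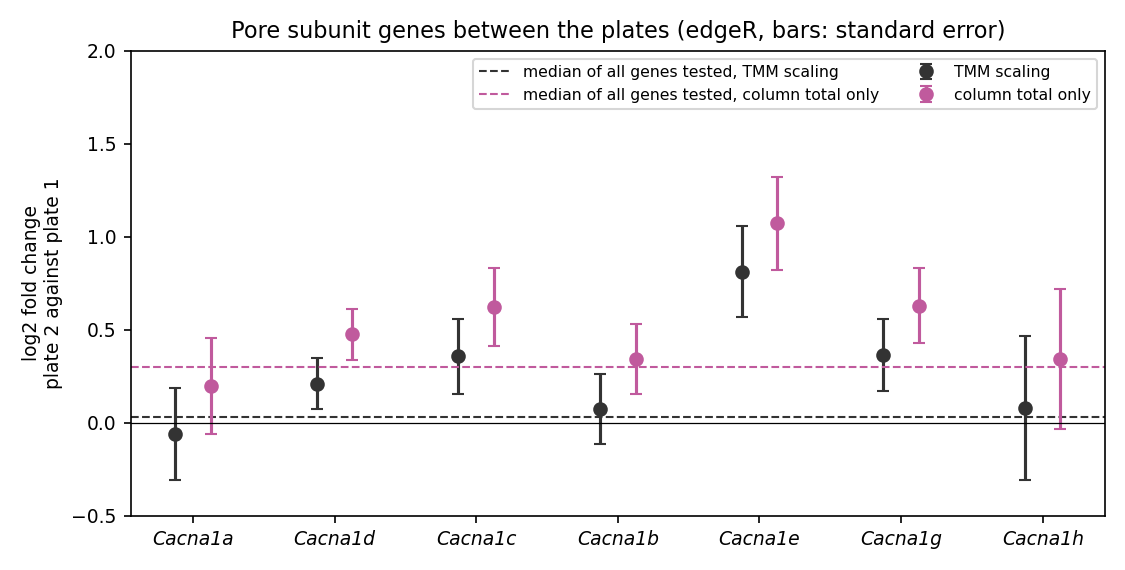
Log2 fold change of the 7 tested pore subunit genes on plate 2 against plate 1 from edgeR, with standard errors, under TMM scaling in grey and with the column total alone in pink. Dashed lines mark the median of all 15669 genes tested, 0.03 and 0.30, and Cacna1e lies highest under both.

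Other values were compared between the plates as well. The mitochondrial share of counts was 3.98 to 4.85% on plate 1 and 4.62 to 7.27% on plate 2, so that the plates overlapped. Of 3 neuronal markers 2 were detected, and the sum of the set was 9.25 to 10.9 CPM on plate 1 and 13.0 to 16.7 CPM on plate 2, on the scale of column totals by which 35.2% of all genes tested lay wholly higher on plate 2. The detected markers differed in direction, with plate means of 4.90 and 9.47 CPM for Slc12a5 and of 4.68 and 4.51 CPM for Camk2a, and neither passed in edgeR with TMM scaling (adjusted p = 0.207 and 0.491). With the column total alone Slc12a5 passed (0.95, edgeR adjusted p = 0.0467). The enteroendocrine marker Pcsk1, a prohormone convertase, passed in the same 2 settings as Cacna1e. Its log2 fold change was 0.82 by the column total (edgeR adjusted p = 0.0278) and 0.57 without a filter (adjusted p = 0.0169). In these settings 9.32% and 2.02% of all genes tested passed. The 7 enteroendocrine markers differed in direction. In edgeR with TMM scaling 3 were above and 4 below 0, with a median log2 fold change of -0.14, and 0 passed. The part of these values in the level of Cacna1e was not tested.

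Across the 6 libraries the levels of several members moved together. The highest Pearson's r of log2(CPM + 1) was that of Cacna1d with Cacna1e, at 0.98, followed by Cacna1c with Cacna1g at 0.95. The lowest was that of Cacna1g with Cacna1h, at 0.11, and all 6 pairs with Cacna1h were at 0.51 or below. Cacna1a, the highest member, had r between 0.20 and 0.76 with the others. All points share their library and its total, and 3 libraries come from each plate, so these values are a description of 6 libraries. On the scale of column totals used here, 35.2% of all genes tested lay wholly higher on plate 2. Which r is usual between genes of this table was not tested.

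Among the 7588 genes that reached 10 CPM in all 6 libraries, Kcnq1ot1, a long noncoding RNA of an imprinted region, was most like Cacna1a, with r = 0.97 over the 6 libraries. It had 36.6, 37.3 and 111.8 CPM on plate 1 and 76.7, 89.4 and 92.1 CPM on plate 2. Malat1, a nuclear long noncoding RNA, had r = 0.96 and was likewise highest, at 889 CPM, in replicate 3 of plate 1. 2700097O09Rik had r = 0.95. All 3 genes shared with Cacna1a the high value in that replicate and the low values in replicates 1 and 2 of the same plate. They were picked for the highest r among the 7588 genes, so a shared pattern follows from the choice. How high the best r would be by chance over 6 libraries was not tested.

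Of 16 genes for auxiliary subunits 12 were detected. The alpha2delta subunits, which raise the number of channels at the membrane and include the targets of gabapentin, held the most abundant pair of the list. Cacna2d2 had 113.2, 118.7 and 153.2 CPM on plate 1 and 163.2, 221.1 and 153.5 CPM on plate 2, a mean of 153.8 ± 38.7 CPM (SD, n = 6). Cacna2d1 had 141.7 ± 25.9 CPM. Each of the pair was thus above the sum of the pore subunits in mean CPM, and Cacna2d2 was above that sum in all 6 libraries.

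All 4 beta subunit genes, whose products bind the pore subunit inside the cell, were detected, at 6.69 to 25.9 CPM on average. Of the 4 alpha2delta genes 3 were detected and Cacna2d4 was not. Of the 8 gamma genes, several of which serve mainly as partners of AMPA receptors, 5 were detected and Cacng1, the gamma subunit of skeletal muscle, Cacng2 and Cacng6 were not. The lowest detected auxiliary gene was Cacng8, at 4.96 ± 0.727 CPM (SD, n = 6). Between the plates 0 of the 12 tested passed an adjusted p of 0.05 in edgeR, and their median log2 fold change was 0.06, beside 0.03 over all genes. Cacnb2 passed with the column total alone (0.56, edgeR adjusted p = 0.0443), and Cacng7 passed without the plate 2 library of middle total (-0.80, adjusted p = 0.0348). Of all genes tested, 9.32% passed in the former setting and 12% in the latter, so that 1 of 12 is near the share over all genes.

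**Figure D4:**
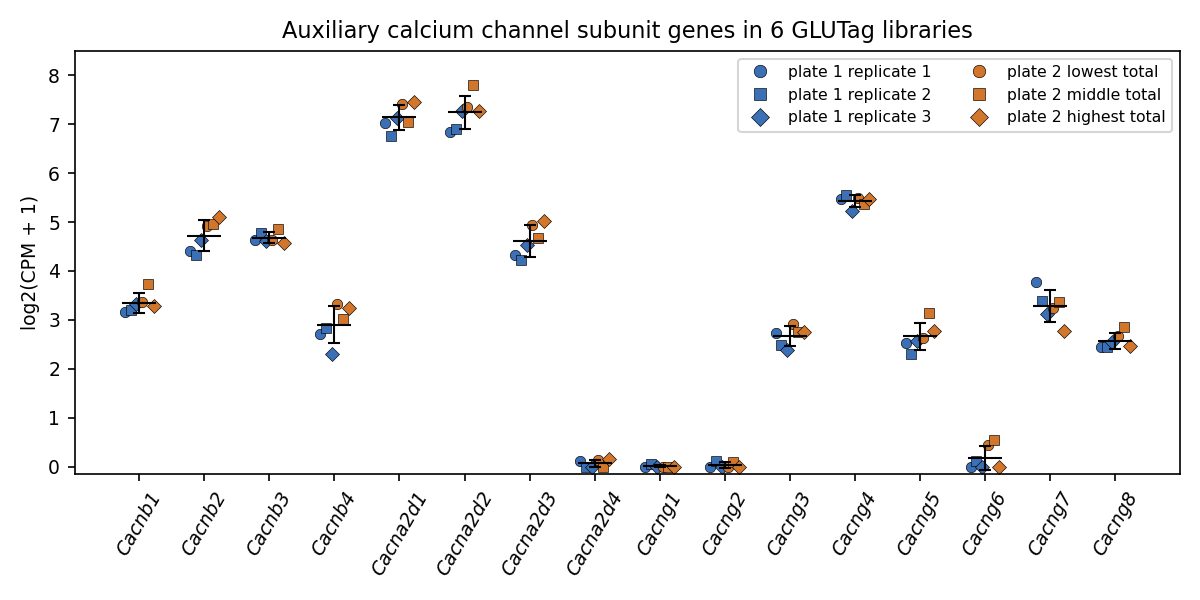
Level of each of 16 auxiliary calcium channel subunit genes as log2(CPM + 1), with 1 point per library, blue for plate 1 and orange for plate 2, and the mean and SD over the 6 libraries in black. Cacna2d1 and Cacna2d2 lie highest, and Cacna2d4, Cacng1, Cacng2 and Cacng6 lie near 0.

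Of 18 genes for proteins that regulate or anchor these channels, or belong to the related sodium leak channel, 14 were detected. The lowest detected was Stac2, a channel adaptor, at 0.533 ± 0.308 CPM from 6 to 31 counts. Nalcn, the pore of the sodium leak channel, was not detected, with 0 to 4 counts. Of the 14 genes tested between the plates, 0 passed an adjusted p of 0.05 in edgeR, 7 were above and 7 below 0, and the median log2 fold change was 0.00 to the second decimal. Other settings made calls in this list. Calm3 passed with DESeq2 (-0.70, adjusted p = 0.00125) and without a filter on low counts in edgeR (-0.66, adjusted p = 0.00142), and Cbarp passed with the column total alone (0.51, adjusted p = 0.0467). The shares of all genes that passed in these settings were 3.7%, 2.02% and 9.32%, and a single gene among 14 does not set the list apart.

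All 9 genes of the exocytosis machinery that calcium entry acts on were detected. Syt1 and Syt7, which encode calcium sensors of vesicle and granule fusion, were highest at 173.2 ± 29.7 and 131.4 ± 11.2 CPM (SD, n = 6), and Cplx2, a complexin, was lowest at 16.1 ± 3.08 CPM. The level of Syt1 was 154.5, 138.4 and 149.1 CPM on plate 1 and 207.6, 185.9 and 203.5 CPM on plate 2, without overlap by CPM. In edgeR its log2 fold change was 0.17 (adjusted p = 0.473). Of the 9 genes 0 passed an adjusted p of 0.05, and their median log2 fold change was -0.06. Syt1 passed with the column total alone (0.43, adjusted p = 0.0405), and Syt7 passed without the plate 2 library of middle total (-0.48, adjusted p = 0.00447). With 9.32% and 12% of all genes passing in these settings, 1 of 9 is again near the share over all genes. Besides Syt1, Cplx1 also lay wholly higher on plate 2 by CPM. It had 31.6, 30.8 and 26.2 CPM on plate 1 and 36.9, 35.5 and 34.8 CPM on plate 2. Of all genes tested, 35.2% lay wholly higher on plate 2 by CPM.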

How the data were processed

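The authors trimmed the reads with Trim Galore 0.6.4, assigned them with Salmon 1.5.1 to GENCODE release M23 transcripts of GRCm38 with no correction for length and added them up by gene in Tximeta. What was deposited are expected counts of 54281 genes in 6 libraries, not normalized. Counts were divided by the column total for CPM and rounded for edgeR 4.0.16 (TMM, filterByExpr, robust quasi-likelihood fit, Benjamini-Hochberg adjusted p under 0.05). DESeq2 1.42.0, limma-voom 3.58.1, other filters, scalings and pseudocounts, single plates and the omission of each library were the alternatives. Every pair of libraries differed by more than counting noise (lowest chi-square 10.27 per gene). On plate 2 the library with the middle total stood apart from those with the lowest and highest total. Its chi-squares with them were 80.1 and 127.9 per gene, against 30.8 between the lowest and the highest. Gene positions and sequences came from GENCODE release M21 on GRCm38, and 54107 of the 54281 identifiers were found in it. Filter residues were aligned with MAFFT 7.526 and located by the pattern serine or threonine, any residue, glutamate or aspartate, any residue, tryptophan. All 10 members are named, and of each list of related genes the 2 highest, the lowest detected and any called between the plates, with the 3 genes most like the highest member. The 2 highest genes of the regulator list are not reported here. The other list genes given by name were chosen after their values were seen. They are Nalcn, Cacna2d4, Cacng1, Cacng2, Cacng6, Slc12a5, Camk2a, Cacnb2, Cacng7, Calm3, Cbarp, Cplx1, Pcsk1 and Sag. Members and lists were chosen with earlier results of these data known. R 4.3.3 and Python 3.11.15 were used.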

Additional observations from a re-analysis of the deposited data

Results flagged for a closer look

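In 2 of 32 levels, shares and differences examined, 1 library lay apart from the other 5, with a gap of more than 0.625 of the whole range, where chance alone sets apart about 1 in 20. Cacna1h reached 1.68 CPM in the middle library of plate 2 by total count. The other 5 libraries had 0.855 to 1.096 CPM, and its mean was 1.08 CPM with that library and 0.963 CPM without it. The difference between Cacna1a and Cacna1d was highest in replicate 3 of plate 1, at 0.89 on the log2 scale, against 0.18 to 0.29 in the other 5 libraries, and its mean was 0.35 with that replicate and 0.24 without it.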

How the results depend on the processing

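All 90 recomputed differences between members or classes kept their direction under the alternatives run for each. Single plates were not among these alternatives, and the plate means of Cacna1b minus Cacna1e were 0.62 and -0.06. The 110 recomputed member levels and 24 class shares cannot be negative, so they have no direction to keep. With each library omitted, all levels, shares and differences stayed within 1 SD of the values reported. So did the levels under other scalings and the levels and shares within single plates. Differences that involve low genes moved by more than 1 SD with pseudocounts of 0.1 and 5 CPM: Cacna1h minus Cacna1i was 2.60 and 0.25 and Cacna1g minus Cacna1h 2.89 and 1.16. With 5 CPM, L-type minus T-type was 1.77 and P/Q-, N- and R-type minus T-type 2.11. Scaling cannot turn a difference within a library, and the mean of most of 6 libraries can hardly move by more than their SD. The count of genes called between the plates, 29, was 579 with DESeq2 (28 of the 29 shared), 1461 with no scaling beyond the total (1390 higher and 71 lower) and 545 with no filter on low counts. It lay between 0 and 1911 with each library omitted: 0 without replicate 1 of plate 1, 0 without the library of plate 2 with the lowest total, 2 and 6 without replicates 2 and 3 of plate 1, 9 without the plate 2 library with the highest total and 1911 without that with the middle total. Limma-voom and the stricter filters gave 23 to 30. Cacna1e passed the threshold with no scaling (1.07) and with no filter (0.83). The fold change of Cacna1a turned positive with limma-voom (0.0022) and with no scaling (0.20) and ranged from -0.24 to 0.30 with each library omitted, that of Cacna1b from -0.10 to 0.21 and that of Cacna1h from -0.27 to 0.28. The cause was not tested. Plate 2 lay wholly above plate 1 for 5 of 7 members by the column total and for 1 by TMM, a count added after the data were seen. Of all genes tested this was so for 35.2% by the column total and 12.8% by TMM. At 19 to 52 counts per library, depth limits Cacna1h, and Cacna1f, Cacna1i and Cacna1s cannot be told from 0 in most libraries. No paired analysis was possible because the sample labels number the wells from 1 to 6 across both plates, and nothing says that the numbers 1 to 3, which the column names repeat on each plate, mark wells that belong together.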
